A study of Mus musculus with 9 samples.

Results

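The genes described here are 9 receptors of sensory neurons and their surroundings in the dorsal root ganglion (DRG): the Mas-related G protein-coupled receptors Mrgprd, Mrgpre, Mrgpra3 and Mrgprb4, and the ATP-gated P2X channel subunits P2rx2, P2rx3, P2rx4, P2rx5 and P2rx6. They were found by their symbols in the deposited count table, where each of the 9 names has 1 row among 55247. RNA was sequenced from DRG of E18.5 mouse embryos (E for embryonic day), in 3 genotypes with 3 libraries each. WT embryos are named only as such, and whether they carry LoxP sites in Meis2 is not given in the sources used here. In Isl1Cre/+ embryos 1 Isl1 copy holds the Cre recombinase. The mutant embryos, Isl1Cre/+::Meis2LoxP/LoxP, have the same Isl1Cre allele together with LoxP sites in both copies of Meis2. Isl1Cre/+ and mutant embryos therefore share the loss of 1 Isl1 copy, so by these names the comparison of mutant with WT differs in 2 loci and that of mutant with Isl1Cre/+ in the Meis2 alleles. Cre acts where Isl1 is active, a gene of postmitotic sensory neurons that is also used outside them. Whether a library came from 1 embryo or from a pool is not given in the sources used here, and p-values measure the spread between these libraries. In whole ganglia, fewer cells of a type and less RNA per cell cannot be told apart.

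Nociceptors of the DRG are commonly divided into peptidergic neurons, which release calcitonin gene-related peptide and substance P, and nonpeptidergic neurons, which bind the lectin IB4, depend on the GDNF receptor Ret and end in the outer epidermis. Mrgpr receptors label subsets of the second class and of itch neurons: Mrgprd responds to beta-alanine, Mrgpra3 to chloroquine, and Mrgprb4 marks fibres that respond to stroking of hairy skin. P2X subunits assemble as trimers around a cation channel that opens when extracellular ATP binds. P2rx3 forms homomeric channels, and with P2rx2 heteromeric channels, in nociceptors, whereas P2rx4 is known from microglia and macrophages as well as from neurons. Runx1, a transcription factor of the nonpeptidergic lineage, is required for the expression of many Mrgpr genes.

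The libraries held 23854607 to 29103444 counts, each count being a read after removal of duplicates. Of all genes, the 13200 that reached 100 counts in 1 library or more were tested. Over them, mutant library 2 (0.979) and WT library 1 (0.981) had the lowest median rank correlation with the others, which otherwise lay between 0.991 and 0.995. Meis2, the targeted gene, had 40.7 ± 0.255 cpm (counts scaled to a common library size; SD, n = 3) in the mutant against 102 ± 7.20 in WT and 95.2 ± 6.28 in Isl1Cre/+, with log2 fold changes of -1.33 and -1.23 (Benjamini-Hochberg adjusted p = 0.00779 and 0.00215 in edgeR). Isl1 had 260 ± 30.3 cpm in WT, 185 ± 19.0 in Isl1Cre/+ and 187 ± 24.5 in the mutant (SD, n = 3). The neuronal tissue was as labelled: all 8 sensory neuron markers examined were tested, led by Nefl and Prph, light neurofilament and peripherin, and their summed level was 10010 to 15350 cpm in each library.

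The receptors spanned more than 3 orders of magnitude in level. Expressed as cpm per kilobase of exon, so that genes can be compared, P2rx3 stood first over the 9 libraries with 102 ± 8.01 (SD, n = 9), and Mrgprd second with 27.4 ± 3.56. Mrgpre followed at 6.37 ± 0.300, P2rx2 at 2.13 ± 0.210 and P2rx4 at 1.58 ± 0.0874 cpm per kilobase. These 5 ranks were separated from one another in every genotype, since the lowest library of each gene lay above the highest library of the next. The order of P2rx2 and P2rx4, which differed by a factor of 1.34, rests on the annotated exon lengths of 2574 and 7025 bases, because in cpm P2rx4 was the higher. P2rx5 at 0.594 ± 0.106, Mrgpra3 at 0.482 ± 0.145 and P2rx6 at 0.289 ± 0.0632 cpm per kilobase were the next, with overlapping ranges over the 9 libraries between P2rx5 and Mrgpra3 and between Mrgpra3 and P2rx6. Mrgprb4 came last at 0.0170 ± 0.0217 cpm per kilobase.

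**Figure D1:**
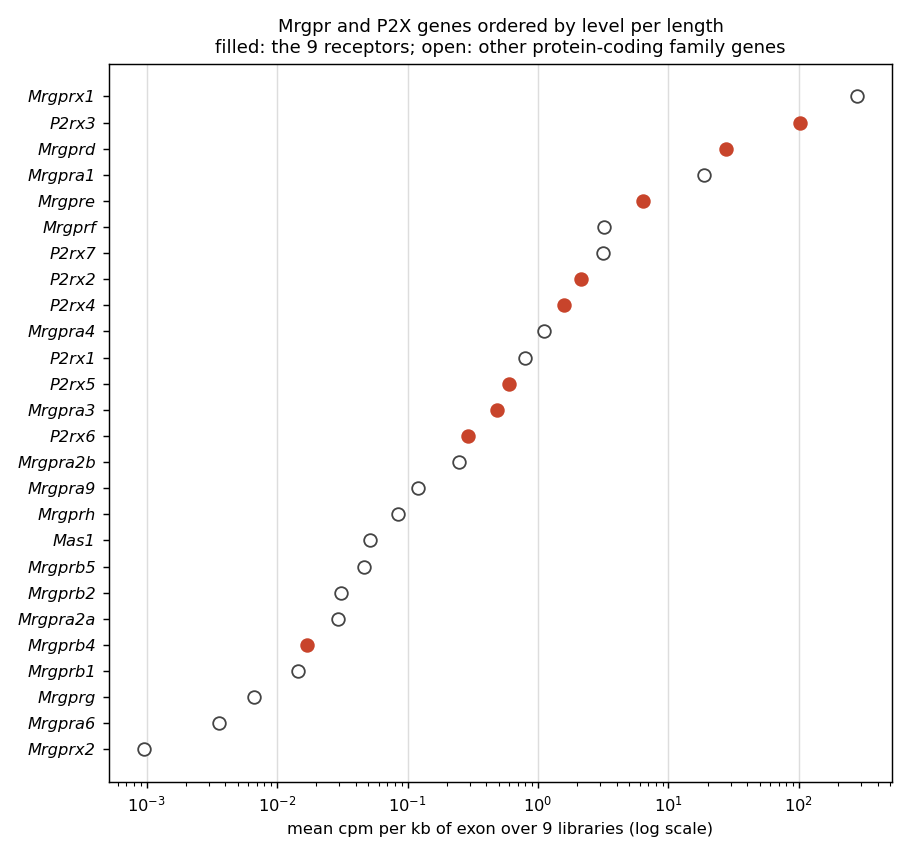
Mean level over 9 libraries of the 9 receptors (filled) and of the other protein-coding Mrgpr and P2X genes and Mas1 with a count (open), in cpm per kilobase of exon on a log axis. Mrgprx1 lies above P2rx3 (102), and Mrgprd (27.4) above Mrgpra1, while Mrgprb4 (0.0170) lies near the low end.

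Of the Mrgpr members, Mrgprd was the most abundant in every library. Raw counts in libraries 1 to 3 were 2016, 2886 and 2665 for WT, 2452, 2306 and 2440 for Isl1Cre/+, and 2559, 1727 and 2304 for the mutant. The 3 Isl1Cre/+ libraries were nearly alike, mutant library 2 was the lowest and WT library 2 the highest, and the 3 genotypes overlapped. In cpm the means were 89.8 ± 13.2, 83.6 ± 1.87 and 85.0 ± 17.1 (SD, n = 3). The log2 fold change of the mutant was -0.078 relative to WT (95% interval -0.48 to 0.33) and 0.025 relative to Isl1Cre/+ (-0.30 to 0.35), and that of Isl1Cre/+ relative to WT was -0.094 (-0.38 to 0.19). These intervals leave room for a mutant level between 0.716 and 1.25 times that of WT.

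Mrgprd (ENSMUSG00000051207.7) lies on the forward strand of chromosome 7 of GRCm38, from 145314835 to 145324086, with 2 exons of which 1 is coding, and its closest tested neighbour is Mrgprf, 5278 bases away. Mrgprb4 (ENSMUSG00000070550.2) is a single-exon gene on the reverse strand of the same chromosome, from 48198070 to 48199288. The sequences before the starts of these 2 genes are shown because the genes mark the upper and lower ends of the Mrgpr members. They come from RefSeq on GRCm38.p6, written 5′ to 3′ on the strand of the gene, with matches of the searched motifs in capitals: chr7:145314585-145314834 (forward strand) for Mrgprd and chr7:48199289-48199428 (reverse strand) for Mrgprb4.
Mrgprd: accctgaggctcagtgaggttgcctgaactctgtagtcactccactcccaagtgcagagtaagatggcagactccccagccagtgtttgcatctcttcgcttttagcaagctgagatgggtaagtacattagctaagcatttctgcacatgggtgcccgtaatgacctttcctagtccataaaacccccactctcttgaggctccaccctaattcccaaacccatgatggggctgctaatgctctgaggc
Mrgprb4: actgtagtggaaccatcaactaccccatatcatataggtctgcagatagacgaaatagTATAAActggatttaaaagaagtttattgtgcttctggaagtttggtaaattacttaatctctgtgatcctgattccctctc

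The motifs searched on both strands were the RUNX core TGTGGT, its variant TGCGGT, the MEIS core TGACAG and the TATA box core TATAAA. Over the 32851 promoters of the table, the 250 bases before the start, longer than the stretch shown for Mrgprb4, hold them in 14.05%, 5.10%, 15.86% and 12.37%. The sequence before Mrgprd held none of the 4, and that before Mrgprb4 held the TATA box core, 82 bases from its end. Of the other members with an entry, Mrgpre held none, P2rx4 held the RUNX variant and P2rx6 the TATA box core, and entries for Mrgpra3, P2rx2, P2rx3 and P2rx5 were not matched. These are letter matches in the window and not binding sites.

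Mrgpre, an orphan receptor of the same family, was the second Mrgpr member by level. Counts in the 3 libraries were 608, 626 and 744 for WT, 725, 660 and 694 for Isl1Cre/+, and 633, 662 and 589 for the mutant. All 9 libraries lay close together and the genotypes overlapped, with means of 23.5 ± 1.95, 24.1 ± 0.577 and 24.3 ± 0.701 cpm (SD, n = 3). The log2 fold change of the mutant was 0.045 relative to WT (95% interval -0.18 to 0.27) and 0.0073 relative to Isl1Cre/+ (-0.14 to 0.16), the narrowest interval of the tested members in that comparison. Mrgpre (ENSMUSG00000048965.9) lies on the reverse strand of chromosome 7 from 143778363 to 143784500, and Gm22064 covers 66 of its 3761 exonic bases on the other strand. Its coding sequence is 65.3% identical to that of Mrgprd over the 877 aligned bases.

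Mrgpra3, the chloroquine receptor of an itch-sensing subset, was detected at 8 to 25 counts per library and stayed under the filter of 100 counts. The 9 raw counts were 17, 19 and 22 for WT, 8, 13 and 18 for Isl1Cre/+, and 18, 25 and 14 for the mutant. In cpm the 3 Isl1Cre/+ libraries, at 0.455 ± 0.181 (SD, n = 3), lay below all 3 WT libraries, at 0.689 ± 0.0642, as did 5.66% of all tested genes in either direction, and the mutant libraries at 0.730 ± 0.193 overlapped both. The gap lay between 0.632 cpm in Isl1Cre/+ library 3 and 0.637 in WT library 1, and scaled by total counts only these were 0.642 and 0.584, so that the genotypes overlapped. Summed over its 3 libraries, each genotype held 58, 39 and 57 counts, which correspond to 0.690 (95% exact Poisson interval 0.524 to 0.892), 0.453 (0.322 to 0.619) and 0.734 (0.556 to 0.951) cpm, covering counting error only. In a fit without the filter, the log2 fold change of Isl1Cre/+ relative to WT was -0.58 (95% interval -1.33 to 0.18, unadjusted p = 0.12 from edgeR's quasi-likelihood test). That of the mutant relative to Isl1Cre/+ was 0.66 (-0.11 to 1.43, unadjusted p = 0.084 from the same edgeR test), and relative to WT 0.11 (-0.59 to 0.80). Without Isl1Cre/+ library 3 the first 2 differences met the criterion described below, at -0.89 (unadjusted p = 0.0374, edgeR) and 0.98 (unadjusted p = 0.0309, edgeR), whereas without Isl1Cre/+ library 1, which had the fewest counts, they were -0.30 (unadjusted p = 0.345, edgeR) and 0.41 (unadjusted p = 0.275, edgeR).

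Mrgpra3 (ENSMUSG00000078698.3) has 2 exons on the reverse strand of chromosome 7, from 47588950 to 47601372, and lies among close relatives. Its coding sequence is 88.5% identical to that of Mrgpra4 over 930 aligned bases and 84.5% identical to that of Mrgpra1 over 983. The stretches of 120 coding bases below contain the longest identical run with Mrgpra4, of 76 bases, and are shown because a read can be assigned only where such genes differ. They are written 5′ to 3′ on the gene's strand, from GENCODE M21 on GRCm38, with bases that differ from Mrgpra3 in capitals: coding bases 172 to 291 of Mrgpra3 (chr7:47589886-47590005, exonic, reverse strand), 115 to 234 of Mrgpra4 (chr7:47981618-47981737, exonic, reverse strand) and 172 to 291 of Mrgpra1 (chr7:47335639-47335758, exonic, reverse strand).
Mrgpra3: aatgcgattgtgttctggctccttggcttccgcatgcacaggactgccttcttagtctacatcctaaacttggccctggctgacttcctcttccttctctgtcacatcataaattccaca
Mrgpra4: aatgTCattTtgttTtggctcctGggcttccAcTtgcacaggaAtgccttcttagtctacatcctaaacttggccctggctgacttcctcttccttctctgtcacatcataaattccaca
Mrgpra1: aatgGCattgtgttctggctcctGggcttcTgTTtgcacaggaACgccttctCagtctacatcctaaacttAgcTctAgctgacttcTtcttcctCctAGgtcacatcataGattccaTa

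Mrgpra4 differs from Mrgpra3 at 8 and Mrgpra1 at 18 of these 120 bases. At the sequenced read length of 84 bases, 0 of the 1212 windows of Mrgpra3 occur in another gene, whereas at 50 bases 89 of 1246 (7.14%) do, 70 of them in Mrgpra4. Molecular identifiers, the tags used to remove duplicates, were extracted from the reads before alignment. The aligned part is therefore shorter than 84 bases, by a length not given in the sources used here. Lengths between 50 and 84 bases were not examined, and the identical run with Mrgpra4 is 76 bases. Mrgpra4 itself had 28 to 46 counts per library. How reads shortened in this way or by trimming were shared between such genes was not tested.

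Mrgprb4 was at the limit of detection. By library, its counts were 1, 2 and 0 for WT, 0, 0 and 0 for Isl1Cre/+, and 1, 0 and 1 for the mutant. The summed 3 and 2 counts in WT and mutant correspond to 0.0357 (95% exact Poisson interval 0.00736 to 0.104) and 0.0258 (0.00312 to 0.0930) cpm. The 0 counts in Isl1Cre/+ allow up to 0.0428 cpm by the same interval. Each genotype held 3 counts or fewer over its libraries, and no fold change was computed. At 84 bases 0 of its 1136 windows occur in another gene, and at 50 bases 17 of 1170 (1.45%) do.

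Among the P2X members, P2rx3 was the most abundant subunit by far. Its raw counts were 8749, 7937 and 7825 for WT, 8096, 8775 and 7853 for Isl1Cre/+, and 7672, 6706 and 7025 for the mutant. Each mutant raw count was lower than every control count, but the mutant libraries held fewer counts in all, and in cpm the genotypes overlapped at 293 ± 30.7, 287 ± 21.5 and 276 ± 19.2 (SD, n = 3). The log2 fold change of the mutant was -0.085 relative to WT (95% interval -0.34 to 0.17, unadjusted p = 0.459 from edgeR's quasi-likelihood test) and -0.059 relative to Isl1Cre/+ (-0.25 to 0.13). Without WT library 1 and mutant library 2 the first value was 0.066. P2rx3 (ENSMUSG00000027071.14) has 12 exons on the reverse strand of chromosome 2, from 84998583 to 85037462, and Ssrp1 covers 51 of its 2789 exonic bases on the other strand.

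P2rx2, the partner subunit of P2rx3 in heteromeric channels, was measured with 123 to 168 counts per library. Raw counts per library were 168, 142 and 150 for WT, 163, 164 and 166 for Isl1Cre/+, and 123, 156 and 124 for the mutant. The means were 5.49 ± 0.699, 5.73 ± 0.178 and 5.19 ± 0.658 cpm (SD, n = 3), with overlapping libraries in each comparison. The log2 fold change of the mutant was -0.082 relative to WT (95% interval -0.48 to 0.32) and -0.14 relative to Isl1Cre/+ (-0.46 to 0.18). Per kilobase of exon, P2rx3 was 49.3 ± 2.01 times as abundant as P2rx2 in WT, 46.3 ± 2.89 times in Isl1Cre/+ and 49.8 ± 9.19 times in the mutant (SD, n = 3), with the lowest ratio of 39.7 and the highest of 57.6 both in mutant libraries. P2rx2 (ENSMUSG00000029503.16) has 11 exons on the reverse strand of chromosome 5, from 110339812 to 110343212.

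P2rx4 varied least among the tested members relative to counting error. The raw counts were 308, 316 and 333 for WT, 330, 303 and 281 for Isl1Cre/+, and 286, 316 and 281 for the mutant. In cpm the means were 11.4 ± 0.229, 10.6 ± 0.673 and 11.4 ± 0.632 (SD, n = 3), and each pair of genotypes overlapped. The log2 fold change of the mutant was -0.0024 relative to WT (95% interval -0.25 to 0.25) and 0.10 relative to Isl1Cre/+ (-0.12 to 0.32, unadjusted p = 0.315 from the edgeR test). P2rx4 (ENSMUSG00000029470.15) has 12 exons on the forward strand of chromosome 5, from 122707544 to 122729738, with its relative P2rx7 16.1 kilobases away. P2rx4 is also made by macrophages, and the 7 macrophage markers, all with a count, summed to 70.7 to 83.9 cpm in WT, 57.4 to 80.9 in Isl1Cre/+ and 54.2 to 135 in the mutant, with the highest sum in mutant library 2, which also had the highest P2rx4 level of 11.9 cpm. Their part in the level of P2rx4 was not tested.

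P2rx5 and P2rx6, subunits described as poorly functional on their own, were under the filter. P2rx5 had 47, 36 and 35 counts for WT, 43, 44 and 34 for Isl1Cre/+, and 29, 39 and 44 for the mutant. P2rx6 had 46, 36 and 26 counts for WT, 34, 32 and 29 for Isl1Cre/+, and 26, 25 and 31 for the mutant. The genotypes overlapped for both genes. In the fit without the filter, the log2 fold change of the mutant relative to WT was 0.063 (95% interval -0.52 to 0.65) for P2rx5 and -0.26 (-0.89 to 0.37) for P2rx6, and relative to Isl1Cre/+ 0.027 (-0.50 to 0.55) and -0.075 (-0.61 to 0.46). The interval of P2rx6 relative to WT runs from 0.538 to 1.30 times the WT level, so these data leave room for levels within that range.

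P2rx5 (ENSMUSG00000005950.14) has 13 exons on the forward strand of chromosome 11, from 73160421 to 73172685, in the neighbourhood of P2rx1. P2rx6 (ENSMUSG00000022758.14) has 12 exons on the forward strand of chromosome 16, from 17561885 to 17577800. Slc7a4, a gene with 356 to 494 counts per library, covers 554 of its 3995 exonic bases on the other strand, and because the strand option of the counting is not given in the sources used here, its counts are uncertain. P2rx5 and P2rx6 are also known from skeletal muscle, and the 8 muscle markers, all tested, summed to 122 to 946 cpm in WT, 68.2 to 169 in Isl1Cre/+ and 140 to 2205 in the mutant. The highest sum, in mutant library 2, went with 39 counts of P2rx5 and 25 of P2rx6, and the part of muscle RNA in either level was not tested.

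**Figure D2:**
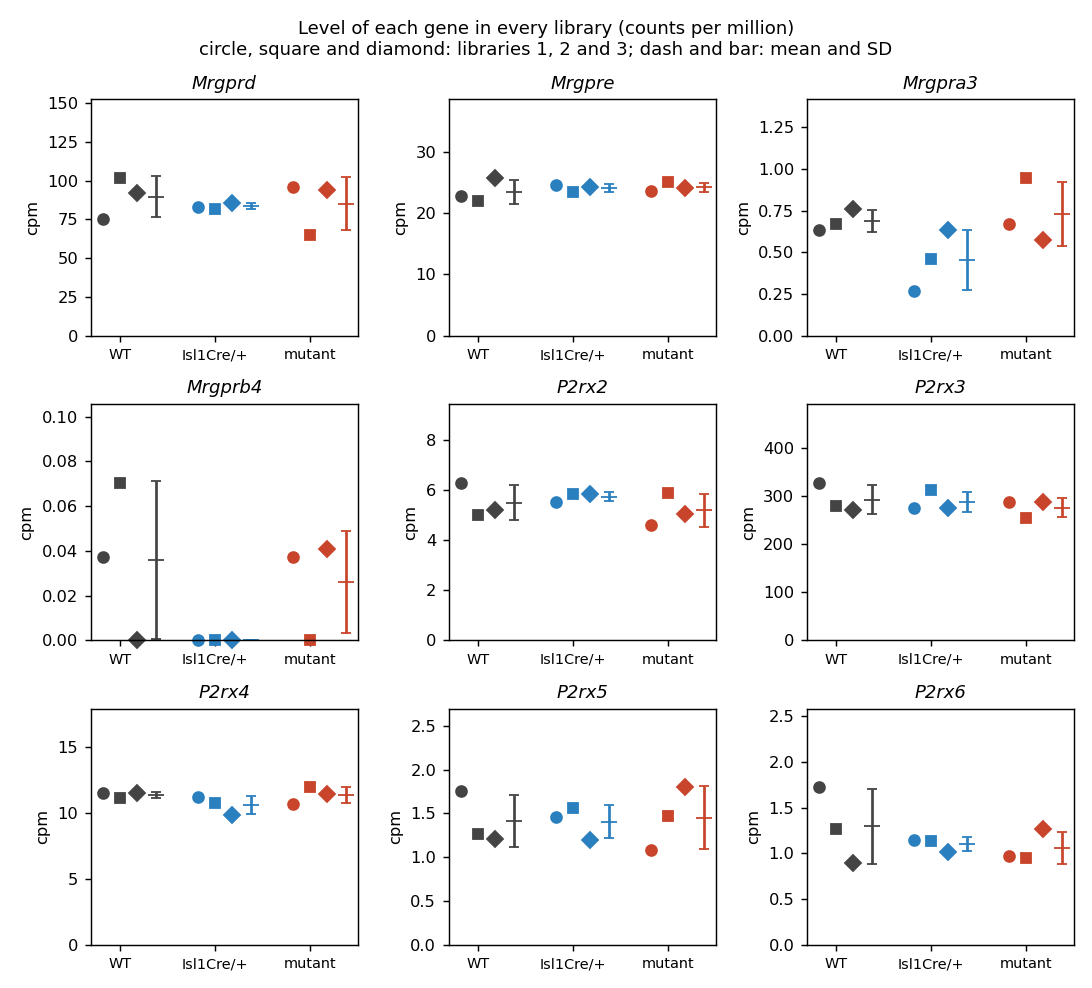
Level of each of the 9 receptors in cpm on a linear axis from 0, with 1 symbol for each library (circle, square and diamond for libraries 1, 2 and 3) and the mean with its SD beside them. The genotypes overlap for every receptor in each pair, except Mrgpra3, whose 3 Isl1Cre/+ libraries lie just below the 3 WT libraries (0.632 against 0.637 cpm at the gap, and overlapping when scaled by total counts only), as 5.66% of all tested genes separate in that pair.

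Per kilobase, P2rx3 made up 92.3% of the summed level of the 7 P2X genes over the 9 libraries, with a range of 90.6% to 93.4%. P2rx7, a subunit of macrophages and glia, followed at 2.85 ± 0.731%, then P2rx2 at 1.92 ± 0.196% and P2rx4 at 1.44 ± 0.136% (SD, n = 9). P2rx1 at 0.715%, P2rx5 at 0.536% and P2rx6 at 0.259% completed the family. Among the Mrgpr genes, the single gene Mrgprx1, the receptor for the peptide BAM8-22, held 82.7 ± 1.08% of the summed level, and Mrgprd held 8.17 ± 0.794%, Mrgpra1 5.60 ± 0.459% and Mrgpre 1.92 ± 0.212% (SD, n = 9). Mrgpra3 held 0.146% and Mrgprb4 0.00511%. Of the 30 other Mrgpr genes and Mas1, 13 are pseudogenes by annotation, 19 had 20 counts or fewer in all libraries together, and 5 had none.

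To ask whether the receptors follow the loss of Meis2 or of 1 Isl1 copy, each pair of genotypes was fitted alone with edgeR, and a gene met the criterion, which the study uses, if it changed by 1.2-fold or more with an unadjusted p under 0.05. The filter of 100 counts in at least 1 library was passed by 5 of the 9 receptors: Mrgprd, Mrgpre, P2rx2, P2rx3 and P2rx4. Between mutant and WT, 0 of the 5 met the criterion, against 0.318% of all 13200 genes tested, and 0 had an adjusted p under 0.05, against 0.00758%. Between mutant and Isl1Cre/+, 0 of the 5 met it, against 1.67%, and 0 had an adjusted p under 0.05, against 0.00758%. Between Isl1Cre/+ and WT, 0 of the 5 met it, against 1.40%, and 0 had an adjusted p under 0.05, against 0% of all genes. In the edgeR fits 0 of the 5 had an unadjusted p under 0.05 in any comparison, and DESeq2's Wald test and limma voom also called 0. With these shares in all genes, a count of 0 in 5 is what the background gives and is no result about these receptors.

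**Figure D3:**
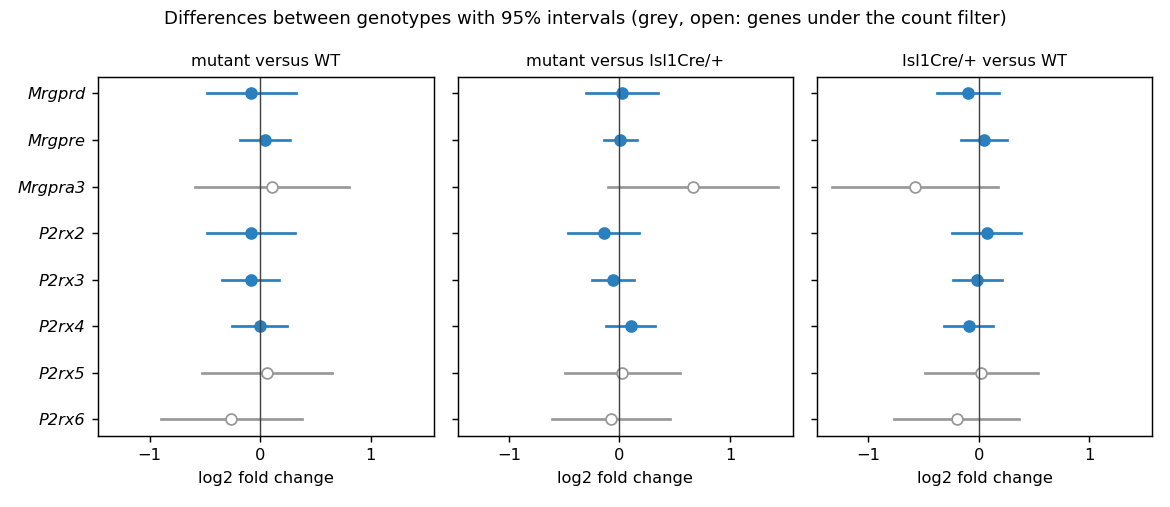
Log2 fold changes with 95% intervals of 8 receptors in the 3 comparisons, from edgeR, with the 5 tested receptors filled and the 3 under the count filter open and grey (Mrgprb4 has no fold change). Every interval includes 0, and the widest belong to Mrgpra3, such as -0.11 to 1.43 for mutant versus Isl1Cre/+.

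The lowest unadjusted p among the 5 receptors was 0.459 between mutant and WT, 0.315 between mutant and Isl1Cre/+ and 0.357 between Isl1Cre/+ and WT in edgeR's quasi-likelihood test, and their adjusted p was at least 0.9997 in each of these edgeR fits. The median log2 fold change of the 5 was -0.078, 0.0073 and -0.014 in the 3 comparisons, beside -0.0094, 0.00029 and -0.0016 over all genes tested. The libraries of 2 genotypes did not separate for any of the 5, while they did for 2.76%, 7.65% and 5.66% of all genes. These p-values do not show that the levels are equal: the intervals of fold changes reach from 0.716 to 1.25 for Mrgprd, from 0.883 to 1.21 for Mrgpre, from 0.716 to 1.25 for P2rx2, from 0.790 to 1.12 for P2rx3 and from 0.841 to 1.19 for P2rx4 in the mutant relative to WT. With 3 libraries a group, the smallest two-sided p of an exact permutation test on a single gene is 0.1.

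The receptors differed in how much libraries of the same genotype varied. The variance within genotypes, divided by that of counting error (6 degrees of freedom), was 48.3 for Mrgprd, beside a median of 15.0 for tested genes with a mean count within 1.5-fold of its own. For P2rx3 it was 56.5 beside 52.9, for Mrgpre 1.84 beside 6.12, for P2rx2 1.60 beside 3.16 and for P2rx4 0.765 beside 4.16. Mrgprd was thus more variable, and P2rx4, P2rx2 and Mrgpre less variable, than the median gene of like abundance. Of the 5, Mrgprd had its 2 lowest levels, 75.5 and 65.3 cpm, in WT library 1 and mutant library 2, the libraries that stood apart from the rest. This was shared by Mrgprx1, also lowest there (log2 cpm -0.33 and -0.17 from its mean, Pearson's r of 0.66 with Mrgprd). The summed level of the 22 nonpeptidergic lineage genes described below was also lowest there, at 2874 and 2768 cpm. Without both libraries, the log2 fold change of Mrgprd in the mutant relative to WT was -0.024 with a standard error of 0.0683, against 0.173 with them. That setting was added after seeing the data and removes the lowest Mrgprd library of both groups, so a smaller standard error follows from the choice. Without WT library 1 alone, Mrgprd was lower in Isl1Cre/+ than in WT by a log2 fold change of -0.22 (unadjusted p = 0.0088 from edgeR's quasi-likelihood test), which is under the required fold of 1.2. Without mutant library 2 alone, it was higher in the mutant than in Isl1Cre/+ by 0.19 (unadjusted p = 0.0152 from the same edgeR test), also under that fold. Each of these 2 fits likewise left out the lowest Mrgprd library of a genotype.

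**Figure D4:**
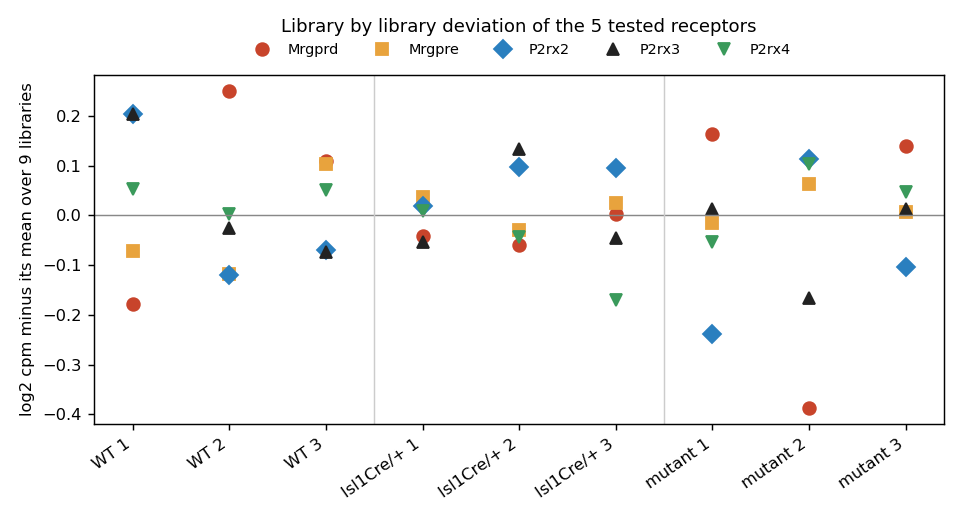
Log2 cpm of the 5 tested receptors in each of 9 libraries minus the mean of that gene over the libraries (pseudocount of 0.1 cpm). Mrgprd is lowest in WT library 1 and in mutant library 2 (-0.39), where P2rx2 is above its own mean, and P2rx4 ranges from -0.17 to 0.10.

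Among the tested receptors, no pair had a high positive correlation across libraries. For P2rx4, P2rx2 and Mrgpre the variance within genotypes was only 0.765, 1.60 and 1.84 times that of counting error. Correlations with these genes are thus limited by counting error, and cannot show whether their levels vary together. Over the 9 libraries, the highest Pearson's r of log2 cpm between any 2 of the 5 was 0.28, for P2rx2 and P2rx3, and the lowest was -0.80, for Mrgprd and P2rx2. Mrgprd had an r of 0.066 with P2rx3 and of -0.30 with Mrgpre. The genes most like Mrgprd were Arhgap26, Bcl11b and Nlgn3, with r of 0.98, 0.97 and 0.96 over these libraries. Those most like Mrgpre were Hsd17b4, Plk4 and Efhd1 (0.94, 0.93 and 0.92), those most like P2rx2 Gosr2, Cidea and Zfp106 (0.92, 0.91 and 0.91), and those most like P2rx3 Rps6kl1, Cul9 and Cacna1h (0.98, 0.98 and 0.97). P2rx4 was most like Fcna, Stat6 and E2f2 (0.99, 0.94 and 0.94). These are the highest values among the 13200 genes tested, with points that share libraries and depth, and are given as a description.

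Of the other Mrgpr genes, Mrgprx1, Mrgpra1 and Mrgprf were tested, and 0 of the 3 met the criterion in any comparison. Mrgprx1 had 6897, 10233 and 9716 counts for WT, 9629, 9703 and 10628 for Isl1Cre/+, and 8952, 7661 and 7950 for the mutant. Its log2 fold change was -0.0083 in the mutant relative to WT and -0.14 relative to Isl1Cre/+. Mrgpra1 had 491, 573 and 522 counts in WT and 599, 650 and 643 in Isl1Cre/+, where all 3 libraries were higher in cpm than those of WT (20.3 against 20.2 at the gap, in a pair where 5.66% of all tested genes separated), with a log2 fold change of 0.23 (unadjusted p = 0.0425 from edgeR's quasi-likelihood test), under the required fold. P2rx7 had 422, 433 and 617 counts for WT, 823, 464 and 523 for Isl1Cre/+, and 363, 509 and 491 for the mutant, and its log2 fold change of 0.013 in the mutant relative to WT had an interval of -0.44 to 0.47. P2rx1, at 38 to 74 counts, was not tested.

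Genes that act around these receptors were examined in lists chosen with the results of these data known. Of 12 P2Y and adenosine receptors, 6 were tested, led by P2ry1, the ADP receptor, and Adora1. P2ry14 alone met the criterion, between mutant and Isl1Cre/+, at a log2 fold change of -0.48 (unadjusted p = 0.0289 from edgeR's quasi-likelihood test), where 1.67% of all genes met it. Its log2 fold change was -0.032 in the mutant relative to WT and 0.45 in Isl1Cre/+ relative to WT. Of 15 genes of ATP release and breakdown, 13 were tested and 0 met the criterion in the 3 comparisons, including Acpp, the acid phosphatase of nonpeptidergic neurons that generates adenosine, with 259 ± 36.0 cpm in the mutant and 244 ± 36.4 in WT (SD, n = 3), and the channel Panx1. Of 12 genes of receptor coupling such as Gnao1 and Gnb1, subunits of G proteins, 11 were tested and 0 met it in any of the 3, where the median log2 fold change was -0.022, -0.032 and 0.033. In these 3 lists 0 genes had an adjusted p under 0.05, and only P2ry14 had an unadjusted p under 0.05 from the edgeR test.

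Of 22 genes of the nonpeptidergic lineage, 20 were tested, and Ret and Grik1, the receptor for GDNF family ligands and a kainate receptor subunit, were the most abundant. Ret had a log2 fold change of -0.063 in the mutant relative to WT (95% interval -0.32 to 0.20) and Grik1 one of 0.011 (-0.28 to 0.31). Runx1 had -0.069 (-0.63 to 0.49). Wnt2b was the 1 gene of 20 to meet the criterion, higher in the mutant than in Isl1Cre/+ with a log2 fold change of 0.37 (edgeR, unadjusted p = 0.00847 and adjusted p = 0.9997), in a comparison where 1.67% of all genes met it. The median over the 20 was 0.014, -0.014 and 0.019 in the 3 comparisons.

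Of 13 genes of itch neurons, 6 were tested, with Jak1 and Mrgprx1 the most abundant, and Nts, the neuropeptide neurotensin, met the criterion between mutant and WT with a log2 fold change of -0.53 (unadjusted p = 0.0406 from edgeR's quasi-likelihood test), where 0.318% of all genes did. For Nts this value was -0.15 in the mutant relative to Isl1Cre/+ and -0.37 in Isl1Cre/+ relative to WT. Of 10 early identity factors, 9 were tested, and Isl1 was the only one to meet it, in both comparisons with WT. Klf7 and Prdm12, its most abundant members, had log2 fold changes of -0.058 and -0.041 in the mutant relative to WT. Of 7 genes of peptidergic nociceptors, Calca among them, all were tested and Trpv1, the capsaicin receptor, met the criterion between mutant and WT with a log2 fold change of -0.39 (unadjusted p = 0.00387 from edgeR's quasi-likelihood test), beside the same 0.318% of all genes. For Trpv1 the value was -0.28 in the mutant relative to Isl1Cre/+ and -0.10 in Isl1Cre/+ relative to WT. None of these genes had an adjusted p under 0.05 in edgeR's quasi-likelihood test, and Nts, Isl1 and Trpv1 were those with an unadjusted one under 0.05.

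Several markers of other cells met the criterion, and 0 of them had an adjusted p under 0.05 in edgeR's quasi-likelihood test. All 8 muscle markers, Acta1, Tnnt3, Ttn, Ckm, Des, Myh3, Myh8 and Mylpf, were lower in Isl1Cre/+ than in WT and higher in the mutant than in Isl1Cre/+ by the criterion, with median log2 fold changes of -2.06 and 2.99, where 1.40% and 1.67% of all genes met it. The same held for 5 of 5 red cell genes, Hbb-bs, Hbb-bt, Hba-a1, Hba-a2 and Alas2, with medians of -1.34 and 2.08. Between mutant and WT, 0 of the 8 muscle and 0 of the 5 red cell genes met the criterion, with 0 at an unadjusted p under 0.05 in edgeR. The libraries of Isl1Cre/+ and WT overlapped for all 13 of these genes, and those of mutant and Isl1Cre/+ for 7 of the 8 muscle genes, Tnnt3 being the exception, while they separated for the 5 red cell genes and for 7.65% of all genes tested. Of the 2 mast cell genes tested, Cpa3 met the criterion in both comparisons with Isl1Cre/+ (log2 fold change -0.67 and 0.99), while Kit did not and went the other way (0.16 and -0.13). Of the 5 endothelial genes, Kdr rose by 0.52 and Pecam1 by 0.35 in Isl1Cre/+ relative to WT, while Kdr was lower in the mutant than in Isl1Cre/+ by a log2 fold change of -0.37. Of 7 Schwann and satellite glia genes, Fabp7 among them, 6 tested macrophage genes, led by Mrc1 and Csf1r, and 2 tested spinal cord genes, Aldh1l1 and Gfap, 0 met the criterion, with 0 at an unadjusted p under 0.05 in edgeR. For the receptors, whose log2 fold changes ran from -0.14 to 0.10 in the 5 tested genes, the part of these cells in their levels was not tested.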

How the data were processed

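DRG of E18.5 embryos were dissected, poly(A) RNA was selected and libraries with molecular identifiers were sequenced as single-end 84-base reads. The authors aligned reads with STAR 2.7.10 to GRCm38 (mm10), removed duplicates by identifier and counted reads per gene with HTSeq 0.6, per the submitters' notes and the methods. The deposited values used here are these counts, not normalized. The annotation release and strand option are not given in the sources used here. Other columns of the table, the authors' log2 fold changes, p-values and scores (moderated statistic, log odds) from limma, were not used. Samples were grouped by their labels.

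Counts of 13200 genes with at least 100 counts in 1 library or more, among 55247, were scaled by TMM and fitted for 1 pair of genotypes at a time by edgeR 4.0.16 (R 4.3.3), whose quasi-likelihood test is two-sided, and p-values were adjusted by Benjamini-Hochberg. Each library held 23854607 to 29103444 counts. The procedure was also run on simulated data, with an outcome that is not reported here. Alternatives were DESeq2's size factors, library size only, no filter, 100 counts in every library, DESeq2 1.42.0, limma 3.58.1 voom, all genotypes in 1 fit, a replicate block, no fold requirement and each library left out, and leaving out WT library 1 with mutant library 2 was added after seeing the data. Exons come from GENCODE M21 (54855 of 55247 identifiers identical) and promoters from RefSeq on GRCm38.p6. Alignment identities and likeness used Biopython 1.88 and Python 3.11.15. The members and lists were chosen with earlier results of these data known. Genes named beside the 9 receptors are other Mrgpr and P2X genes, the 2 most abundant genes of each list (some are not reported here), genes of a list meeting the criterion, and the 3 genes most like each tested receptor. Other genes were named after their values were seen.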

Additional observations from a re-analysis of the deposited data

How the results depend on the processing

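Of the 5 tested receptors, 0 met the criterion in any comparison under every setting tried, with each library left out in turn included, and 188 of their log2 fold changes across settings kept their direction and 27 turned it, without any of these meeting the criterion. Relative to WT, the log2 fold change of P2rx4 in the mutant, -0.0024, was 0.0090 with DESeq2's size factors, 0.012 with library size only, 0.020 without the filter, 0.00023 with at least 100 counts in every library and 0.0089 with DESeq2's Wald test. With library size only, Mrgprd turned to -0.0015 and Mrgpre to -0.017 in the mutant relative to Isl1Cre/+, and P2rx3 to 0.018 in Isl1Cre/+ relative to WT. Without the filter, Mrgpre was -0.010 in the mutant relative to Isl1Cre/+. Without WT library 1 and mutant library 2, P2rx3, Mrgpra3 and P2rx6 were at 0.066, -0.19 and 0.049 in the mutant relative to WT. Where leaving out 1 library turned the direction, the log2 fold changes in the mutant relative to WT ranged from -0.19 to 0.099 for Mrgprd, from -0.16 to 0.026 for P2rx2, from -0.14 to 0.0041 for P2rx3, from -0.019 to 0.040 for P2rx4, from -0.11 to 0.25 for Mrgpra3 and from -0.11 to 0.23 for P2rx5. Relative to Isl1Cre/+ they ranged from -0.072 to 0.19 for Mrgprd, from -0.012 to 0.022 for Mrgpre, from -0.092 to 0.0044 for P2rx3, from -0.13 to 0.19 for P2rx5 and from -0.19 to 0.022 for P2rx6. In Isl1Cre/+ relative to WT they ranged from -0.22 to 0.013 for Mrgprd, from -0.079 to 0.052 for P2rx3, from -0.064 to 0.18 for P2rx5 and from -0.39 to 0.026 for P2rx6. The cause was not tested.

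The background counts of 42, 221 and 185 genes became 408, 1028 and 845 without the filter, and the last 2 became 139 and 104 with at least 100 counts in every library, which tests fewer genes. The second was 360 without the fold requirement, and the first 182 without WT library 1 and mutant library 2. Leaving out 1 library gave 40 to 132, 167 to 407 and 102 to 340. With the replicate number as a block they were 31, 177 and 236 and 0 receptors were called. The deviations of libraries with the same number correlated between -0.57 and 0.39. Libraries with different numbers were not compared in this way, so whether the numbers pair the libraries was not tested. Low counts limit the precision for Mrgpra3, P2rx5, P2rx6 and Mrgprb4.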
